A study of Mus musculus with 6 samples.

Results

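The AP-1 subunit genes Fos, Fosb, Fosl2, Jun, Junb and Jund, the related leucine zipper genes Batf, Batf3 and Atf3, and Irf4, which encodes the partner factor of BATF, were read from the deposited expression table by gene symbol. Of these 10 listed genes, 9 were matched among 13185 rows and all 9 were among the 12554 genes tested. The expression of Batf3 was not analysed here, and the gene enters only the promoter search. The libraries came from mouse T-ALL (T-cell acute lymphoblastic leukaemia) cells driven by Notch1. In 3 libraries the cells had received panobinostat, an inhibitor of histone deacetylases, at 25 nM for 2 h, and in 3 libraries the cells were left untreated. Both groups were grown on plates coated with anti-CD3 (2.5 ug/mL), a trigger of T cell receptor signals, with IL-2 at 100 U/mL. A stimulus that itself acts on these genes was therefore present in treated and untreated cells alike. Libraries were made with a 3' mRNA kit, so reads come from the polyadenylated ends of transcripts, and levels are given as log2 CPM (counts per 1000000 reads). The titles of all 6 samples carry the number 1, and the numbers 1 to 3 used here come from the column names of the table. Nothing in the labels told whether the 3 libraries of each group were separate cultures, and p-values then measure the spread among these samples alone, which may be technical.

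AP-1 is a family of dimers of basic leucine zipper (bZIP) proteins. FOS-type proteins bind DNA only as partners of JUN-type proteins, whereas JUN-type proteins can also pair with each other. Signals from the T cell receptor reach the FOS and JUN genes through MAP kinases and the serum response factor SRF, and AP-1 then acts with the calcium-regulated NFAT factors on cytokine genes. BATF and BATF3 are short bZIP proteins that pair with JUN-type proteins and recruit IRF4 to composite DNA elements in activated T cells. ATF3 is a stress-induced bZIP factor. IRF4 is itself induced by antigen receptor signals, and it is also a defining factor of plasma cells.

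Promoter sequences are shown for members whose groups did not overlap, where the reference table held bases upstream of the annotated gene. These are Irf4, which passed the test given below, and Fos and Batf, which did not pass it. The sequences are the 5' to 3' gene strand from RefSeq on build GRCm38.p6, which has the coordinates of mm10, and each stops before the first exon annotated by GENCODE. Capitals mark matches on either strand to one of 2 core promoter motifs. The first is GGGCGG, the GC box bound by SP1-type factors. The second is the TATA box, spelled TATAAA. The Irf4 window is chr13:30748983-30749225 on the plus strand, the Fos window chr12:85473640-85473889 on the plus strand and the Batf window chr12:85686470-85686668 on the plus strand.
Irf4: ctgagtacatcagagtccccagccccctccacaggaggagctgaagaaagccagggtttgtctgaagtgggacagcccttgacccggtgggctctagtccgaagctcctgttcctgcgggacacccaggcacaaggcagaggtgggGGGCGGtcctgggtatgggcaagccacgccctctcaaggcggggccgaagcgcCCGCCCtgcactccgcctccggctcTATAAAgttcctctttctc
Fos: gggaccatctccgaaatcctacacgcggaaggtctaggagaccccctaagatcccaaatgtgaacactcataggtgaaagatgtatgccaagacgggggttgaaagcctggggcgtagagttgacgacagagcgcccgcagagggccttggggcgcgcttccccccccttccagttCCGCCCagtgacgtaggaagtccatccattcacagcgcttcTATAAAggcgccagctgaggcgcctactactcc
Batf: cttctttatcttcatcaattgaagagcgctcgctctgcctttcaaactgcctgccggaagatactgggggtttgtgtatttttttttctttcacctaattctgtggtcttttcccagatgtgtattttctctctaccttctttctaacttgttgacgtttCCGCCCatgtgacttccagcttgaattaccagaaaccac

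The 250 bases before the start site of all 10 listed genes were searched on both strands for 6 motifs. These were TGANTCA (the site of AP-1 dimers), TGACGTCA (the cyclic AMP response element, bound by CREB and ATF factors), the CArG box (bound by SRF), GGGCGG (the GC box), CCAAT (bound by NF-Y) and the TATA box. Positions are counted back from the RefSeq start. The TATA box was present in 2 members, Irf4 (bases 26 to 21 before the start) and Fos (33 to 28 before it), and in 12.4% of the 32851 promoters of that length in the table. GGGCGG was present in 8 members and in 32.7% of promoters. CCAAT was present in 2 members, Jun and Junb, and in 33.8% of promoters. The AP-1 site, the cyclic AMP response element and the CArG box were present in 0 members, and in 6.75%, 1.55% and 1.47% of promoters. The absence says only that these letters are not in this window. For Fosl2 the window lies inside exons annotated by GENCODE, so its bases are not shown. The Batf3 window has 163 of its 250 bases in such exons, and the Atf3 window lies within the span of the GENCODE gene. The Jund window of RefSeq starts upstream of the GENCODE gene. The motif counts above include all of these windows.

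Irf4 rose and Fosl2 fell after 2 h of panobinostat, while the JUN-type genes, Fos, Fosb, Batf and Atf3 did not pass the test. In all, 2 of 9 members passed (22.2%; limma, Benjamini-Hochberg adjusted p below 0.05 over all tested genes), against 38.3% of all tested genes. The 1 rise stands beside a background of 19.2% of genes higher, and the 1 fall beside 19.0% lower. The share of members that passed was thus below that of all genes. The groups did not overlap in 4 members (44.4%), Irf4, Fosl2, Fos and Batf, against 51.4% of all tested genes. The median log2 fold change of the members was -0.26 and that of all tested genes -0.0052. With 3 libraries against 3, the exact two-sided permutation test of a single gene cannot go below p = 0.10, and it gave that value for these 4 genes.

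**Figure D1:**
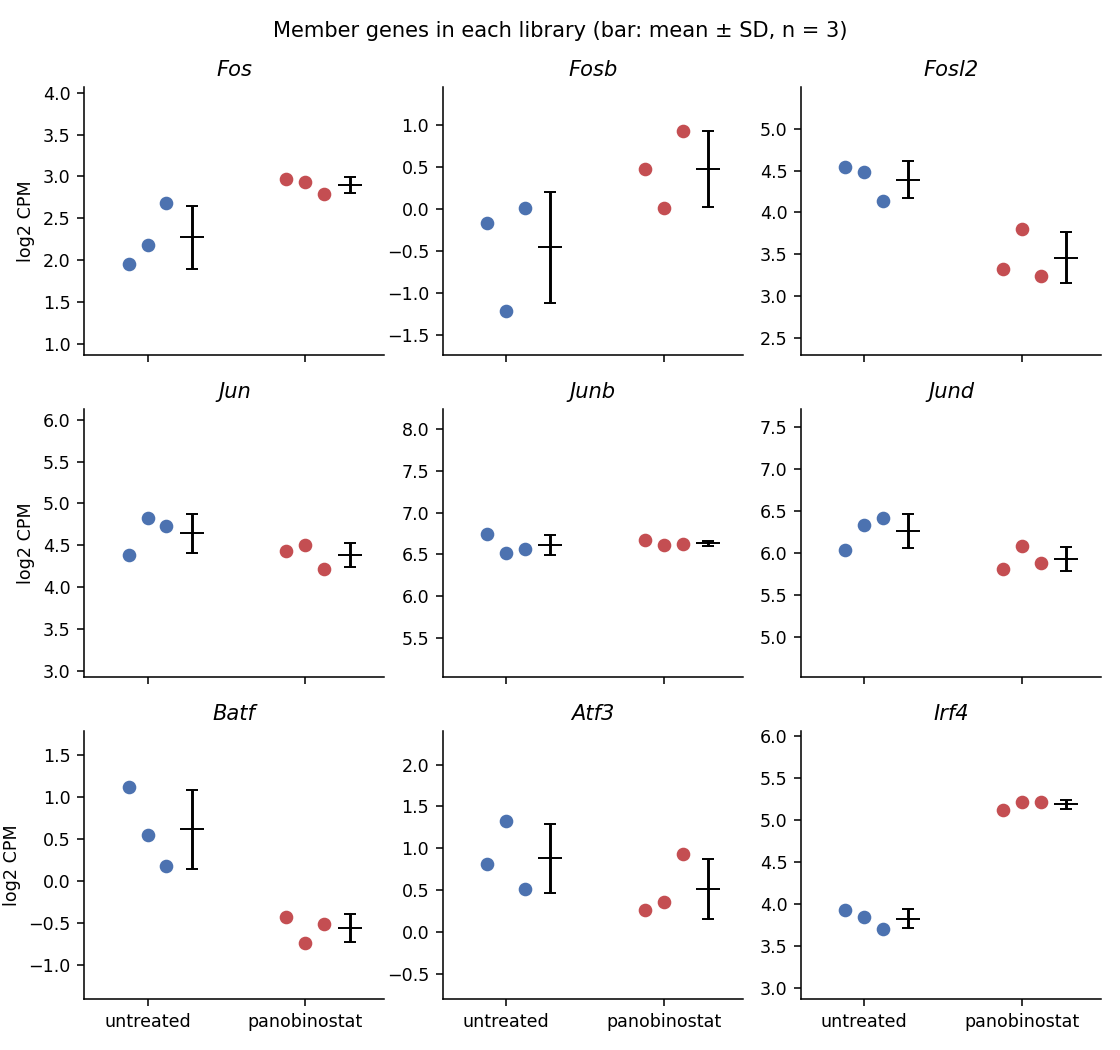
Level of each member in log2 CPM (y axis, every panel spanning the same range of log2 units) in the 3 untreated (blue) and 3 panobinostat (red) libraries, with mean ± SD beside each group. Irf4 lies between 5.12 and 5.22 in treated libraries, above all untreated ones, and Fosl2 lies between 3.24 and 3.80, below all untreated ones.

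The libraries themselves held an estimated 6.01 to 7.68 reads per CPM unit (total reads divided by 1000000), inferred from the steps between tied low values. Values were quantile normalized as far as the table shows, so a shift of all genes in 1 direction could not be seen. On the first principal component untreated library 1 scored 25.7, the other untreated libraries 48.0 and 41.0, and the treated libraries -43.2 to -35.4. Without it, 4 members passed in place of 2, as given with Jun and Jund below. The count over all tested genes then rose too, to 5226 from 4806.

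Irf4 (chromosome 13, 30749226 to 30766976, plus strand, mm10) encodes an interferon regulatory factor found in lymphoid and myeloid cells. Treated libraries 1 to 3 held it at 5.12, 5.22 and 5.22 log2 CPM, against 3.93, 3.85 and 3.70 for untreated libraries 1 to 3. All 3 treated libraries lay above all untreated libraries, and the replicates lay close together. Irf4 rose by 1.36 on the log2 scale (SE 0.11, 95% interval 1.11 to 1.62, limma adjusted p = 0.000303), a 2.57-fold rise. The estimated reads behind these values were 210, 251 and 280 in treated and 118, 93 and 84 in untreated libraries. Among the 12554 tested genes 339 had a larger rise and 83 a smaller p. Its place in the order of all tested genes by 3' read level moved from the percentile 44.5 to 66.6. The rise passed in all 16 alternative fits, at log2 fold changes of 1.30 to 1.44.

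Irf4 was followed most closely across the 6 libraries by Usp38, a deubiquitinase gene, and Tspan14, a tetraspanin gene, among 5768 genes of at least median level. Likeness was measured as the root mean square distance between mean-centred log2 profiles, which was 0.083 for Usp38 and 0.087 for Tspan14. Usp38 rose by 1.35 ± 0.13 (SE) and Tspan14 by 1.28 ± 0.10 on the log2 scale (limma adjusted p = 0.00052 and 0.000313). Libraries of a group share their treatment, so this likeness mostly restates the difference between groups.

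Fosl2 (chromosome 5, 32135801 to 32157842, plus strand) encodes FRA-2, a FOS-type subunit without the strong activation domain of FOS. Treated libraries 1 to 3 held it at 3.33, 3.80 and 3.24 log2 CPM, against 4.55, 4.48 and 4.14 for untreated libraries 1 to 3. Every treated library lay below every untreated one, with treated library 2 the highest of its group and untreated library 3 the lowest of its own. Fosl2 fell by 0.93 on the log2 scale (SE 0.19, 95% interval of the change -1.37 to -0.49, limma adjusted p = 0.00741), so that untreated cells held 1.9 times the treated level. The reads were 61, 95 and 72 in treated and 182, 147 and 114 in untreated libraries. A larger fall was measured in 908 tested genes. The genes with the most similar profile were Cep41, a centrosomal protein gene (distance 0.093), which fell by 0.85 (SE 0.22, limma adjusted p = 0.0189), and Dhrs4, a short-chain dehydrogenase gene (distance 0.142), which fell by 0.88 (SE 0.10, limma adjusted p = 0.00101). Cep41 no longer passed once panobinostat library 1 (-0.74), panobinostat library 3 (-0.75) or untreated library 2 (-0.83) was left out.

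Fos (chromosome 12, 85473890 to 85477273, plus strand) is the classical immediate early gene of the family. Its level was 2.97, 2.94 and 2.80 log2 CPM in treated libraries and 1.96, 2.18 and 2.69 in untreated libraries. The groups did not overlap, but untreated library 3 came within a short distance of treated library 3. The log2 fold change was 0.63 (SE 0.22, 95% interval 0.11 to 1.14) and did not pass (limma adjusted p = 0.0584). It passed without untreated library 3 (0.83, limma adjusted p = 0.0274), over a range of adjusted p from 0.0274 to 0.152 in all alternatives. Estimated reads ran from 47 to 53 in treated and from 29 to 42 in untreated libraries.

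Fosb (chromosome 7, 19302696 to 19310051, minus strand), also an immediate early gene, was near the limit of detection. It was measured at 0.48, 0.02 and 0.93 log2 CPM in treated libraries and -0.17, -1.22 and 0.02 in untreated libraries, from 6 to 14 and from 2 to 7 reads. The groups touched, since treated library 2 and untreated library 3 held the same value. Its log2 fold change of 0.93 had an interval of -0.19 to 2.05 (limma adjusted p = 0.164), which spans 0.88-fold to 4.14-fold, so no difference was detectable at this depth. The remaining FOS-type gene, Fosl1, which encodes FRA-1 and is no member, lay under the level at which genes were tested. It stood at 0.32 ± 0.05 log2 CPM in treated and -0.66 ± 0.23 in untreated libraries (SD, n = 3).

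Within each library the make-up of the FOS-type reads, counted over the members and without Fosl1, differed between groups. Fosl2 supplied 83.0%, 81.8% and 70.3% of the summed CPM of Fos, Fosb and Fosl2 in untreated libraries 1 to 3, and 52.1%, 61.7% and 51.7% in treated libraries 1 to 3. The share of Fos was 13.8%, 16.6% and 25.7% in untreated and 40.7%, 33.8% and 37.9% in treated libraries. Neither share overlapped between groups. Quantile normalization moves values by rank, so these shares are of normalized values and not of raw reads. The summed FOS-type CPM was 25.1 to 28.1 in untreated and 18.3 to 22.6 in treated libraries. These are descriptions of members already named, with no test of their own.

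**Figure D2:**
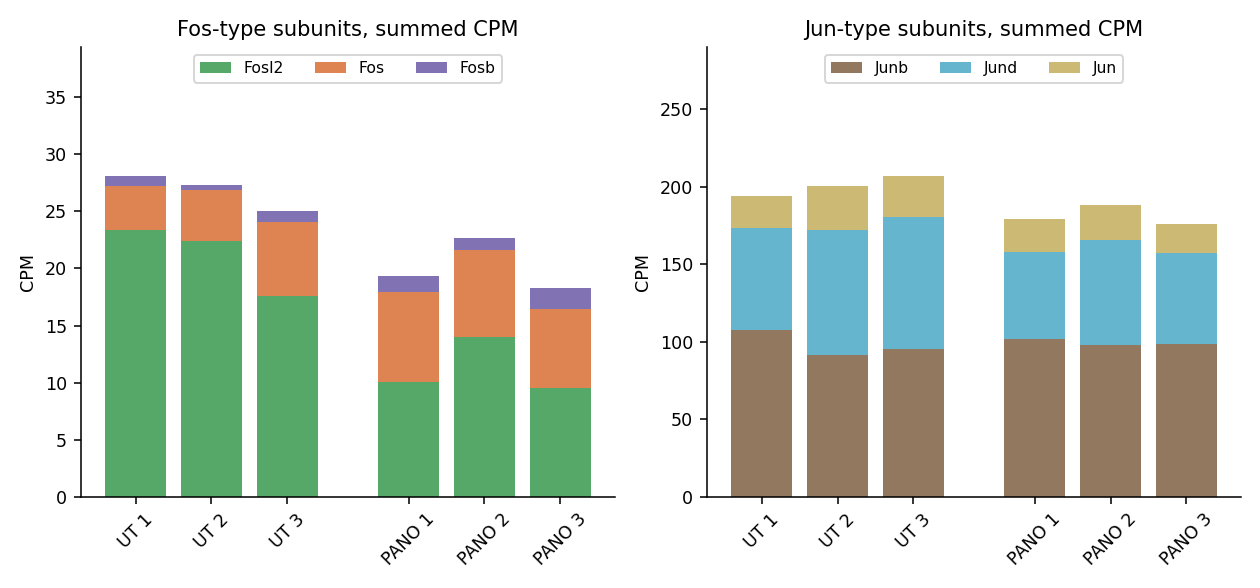
Stacked CPM (y axis from 0) of the FOS-type members (left) and the JUN-type members (right) in untreated (UT) and panobinostat (PANO) libraries. Fosl2 fills 70.3% to 83.0% of the FOS-type bar in untreated and 51.7% to 61.7% in treated libraries, whereas Junb is the largest JUN-type part in all 6 libraries.

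By mean level in each group the JUN-type genes were the most abundant AP-1 subunits in these cells, and none passed the test. In untreated library 1, however, Jun (4.38 log2 CPM) lay below Fosl2 (4.55). Junb (chromosome 8, 84974484 to 84978718, minus strand), a JUN-type factor prominent in activated T cells, was measured at 6.67, 6.61 and 6.62 log2 CPM in treated libraries and 6.75, 6.52 and 6.57 in untreated libraries. The groups overlapped throughout, and the log2 fold change of 0.02 had an interval of -0.18 to 0.22 (limma adjusted p = 0.87), which bounds any change at 1.16-fold up or 1.13-fold down. The 3' end of Junb shares 351 annotated bases with Prdx2 on the opposite strand, a peroxiredoxin gene at 8.86 ± 0.09 log2 CPM in treated and 8.89 ± 0.09 in untreated libraries (SD, n = 3). The strand setting of the read counting was not given in the sources used here, so reads of the pair cannot be told apart with certainty.

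Jund (chromosome 8, 70698949 to 70700616, plus strand), which encodes the JUN-type factor usually present in resting cells, stood at 5.81, 6.08 and 5.89 log2 CPM in treated and 6.04, 6.34 and 6.42 in untreated libraries. Treated library 2 lay above untreated library 1, so the groups overlapped. The log2 fold change was -0.34 (SE 0.12, 95% interval -0.63 to -0.05, limma adjusted p = 0.0652). It passed without untreated library 1 (-0.45, limma adjusted p = 0.0122), with sample weights (-0.43, limma adjusted p = 0.00993) and with a robust spread model (limma adjusted p = 0.0412), over a range of adjusted p from 0.00993 to 0.197 in all alternatives. Along 919 bases Jund overlaps an antisense gene, Gm11175.

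Jun (chromosome 4, 95049034 to 95052222, minus strand), the founding subunit and a target of the JNK kinases, was at 4.43, 4.50 and 4.22 log2 CPM in treated and 4.38, 4.83 and 4.73 in untreated libraries. Untreated library 1 lay below 2 of the 3 treated libraries. The log2 fold change was -0.26 (SE 0.15, 95% interval -0.60 to 0.08, limma adjusted p = 0.203). Without untreated library 1 it was -0.39 and passed (limma adjusted p = 0.0441, range over all alternatives 0.0441 to 0.457). Jun overlaps the antisense gene Junos along 689 bases. Junb supplied 51.9% to 56.7% of the summed JUN-type CPM in treated and 45.6% to 55.4% in untreated libraries, ranges that overlapped. In each library the order of 3' read levels was Junb, then Jund, then Jun.

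Batf (chromosome 12, 85686669 to 85709087, plus strand) was scarce. Its level was -0.43, -0.74 and -0.52 log2 CPM in treated and 1.12, 0.55 and 0.18 in untreated libraries. All treated libraries lay below all untreated ones, but these values rest on 4, 4 and 5 reads against 17, 9 and 7. The log2 fold change was -1.18 (SE 0.40, 95% interval -2.11 to -0.24) and did not pass (limma adjusted p = 0.052). It passed when the spread was modelled without a trend on level (limma adjusted p = 0.0176), over a range of adjusted p from 0.0176 to 0.156 in all alternatives. With a pseudocount of 1 on CPM the log2 fold change was -0.60. Irf4 therefore stood 5.55 to 5.97 log2 units above Batf in treated libraries and 2.81 to 3.52 above it in untreated libraries, counted as 3' reads.

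Atf3 (chromosome 1, 191170296 to 191218039, minus strand) was similarly low. It was measured at 0.27, 0.35 and 0.93 log2 CPM in treated and 0.81, 1.32 and 0.51 in untreated libraries, from 7 to 14 and from 9 to 16 reads. The groups overlapped, and the log2 fold change of -0.37 had an interval of -1.20 to 0.47 (limma adjusted p = 0.451).

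Over the 9 members the order of mean level in untreated cells was Junb, Jund, Jun, Fosl2, Irf4, Fos, Atf3, Batf and Fosb. In treated cells it was Junb, Jund, Irf4, Jun, Fosl2, Fos, Atf3, Fosb and Batf. Irf4 thus lay below Jun and Fosl2 in every untreated library and above both in every treated library. The last 3 places in each group, held by Atf3, Batf and Fosb, rest on at most 17 reads a library. Each level counts 3' reads, of which a transcript gives about the same number whatever its length, so levels were not divided by length.

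**Figure D3:**
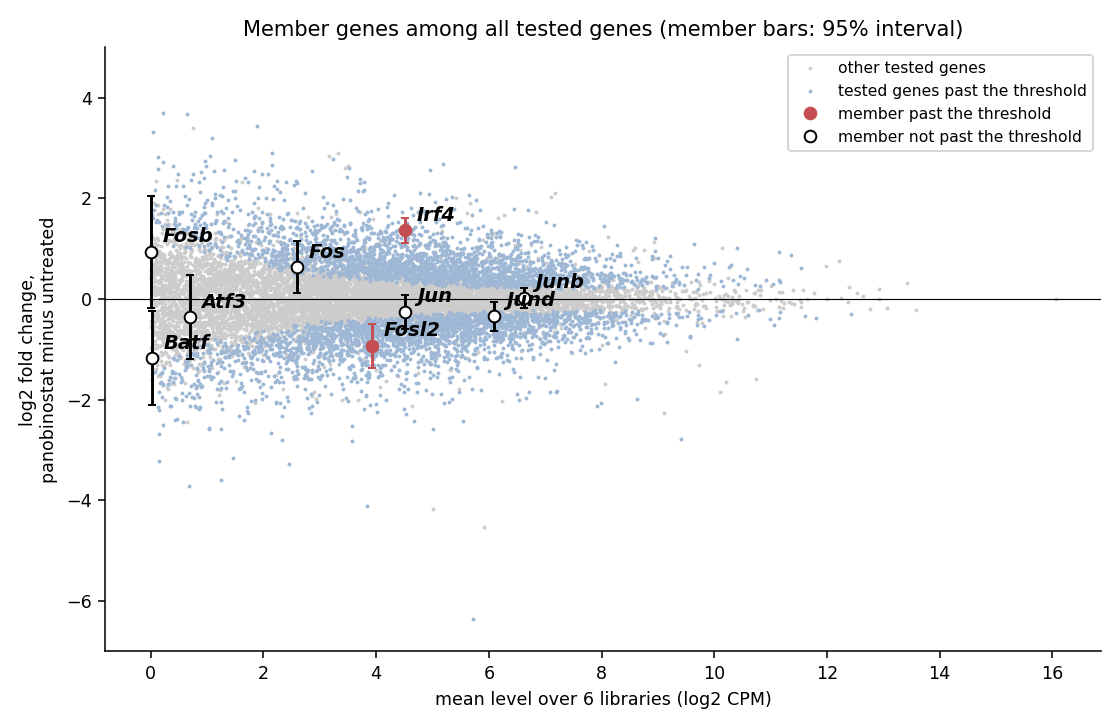
Log2 fold change (y axis, panobinostat minus untreated) against mean level over 6 libraries (x axis, log2 CPM) for all 12554 tested genes, with members labelled and drawn with their 95% intervals. Irf4 at 1.36 and Fosl2 at -0.93 are the 2 members past the threshold, and the widest intervals belong to Fosb and Batf, the lowest in level.

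Among other bZIP factors 4 rose and 8 fell of 28 tested (42.9%, against 38.3% of all tested genes), with a median log2 fold change of -0.07. Jdp2, which encodes a repressor that pairs with JUN-type proteins at AP-1 sites, fell from 4.94 ± 0.24 to 2.83 ± 0.07 log2 CPM (SD, n = 3), a log2 difference of -2.11 (SE 0.15, limma adjusted p = 0.00024). Its change was larger than that of any member. Bach1, a bZIP repressor of heme-responsive genes (-0.71, SE 0.10), fell as well. Atf6, a sensor of endoplasmic reticulum stress, rose (0.92, SE 0.12). The limma adjusted p-values of Bach1 and Atf6 were 0.00188 and 0.0014.

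Of 27 genes of the Ras and MAP kinase cascade 6 rose and 6 fell (44.4% called, against 38.3% of all tested genes, median 0.04). In the branch to JNK, the kinase of JUN, Map2k7 fell from 5.75 ± 0.09 to 4.18 ± 0.10 log2 CPM (SD, n = 3), a log2 difference of -1.57 (SE 0.10, limma adjusted p = 0.0002), and Map3k1 fell as well (-0.94, SE 0.10, limma adjusted p = 0.000628). The other JNK kinase gene, Map2k4 (-0.10, limma adjusted p = 0.427), and the JNK gene Mapk8 (-0.03, limma adjusted p = 0.865) did not pass, while the JNK gene Mapk9 rose (0.56, SE 0.11, limma adjusted p = 0.006). These 3 were named after their values were seen. Map2k1, which encodes the ERK kinase MEK1, rose (1.35, SE 0.19, limma adjusted p = 0.00194), as did Map2k3, a kinase of p38 (0.82, SE 0.10, limma adjusted p = 0.00103).

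SRF acts at serum response elements such as that of Fos. The list of SRF, its partners and the MEF2 factors gave 3 rises and 2 falls of 9 (median 0.14). The share called was 55.6%, against 38.3% of all tested genes. Srf rose slightly (0.31, SE 0.07, limma adjusted p = 0.0131) and so did Mef2d (0.43, SE 0.10, limma adjusted p = 0.0124). Srf no longer passed once panobinostat library 1 (0.28) or 3 (0.31) was left out. Elk3, a ternary complex factor that can repress (-1.20, SE 0.20, limma adjusted p = 0.00317), and Mkl2, an actin-regulated coactivator (-1.26, SE 0.16, limma adjusted p = 0.00118), fell.

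Genes that restrain MAP kinases or the AP-1 proteins gave 5 rises and 3 falls of 19 (median 0.12). The share called was 42.1%, against 38.3% of all tested genes. Dusp7, a phosphatase of ERK, rose (1.20, SE 0.12), and so did Fbxw7, a ubiquitin ligase subunit that recognises JUN and Notch1 (0.53, SE 0.09). The ligase adaptor gene Det1, which takes part in JUN turnover (-1.16, SE 0.17), and Spred2, an inhibitor of Ras signalling (-0.76, SE 0.13), fell. Among further phosphatases induced by MAP kinase signals, Dusp6 (1.52, SE 0.28) and Dusp2 (1.33, SE 0.25) rose. Dusp4 fell (-1.47, SE 0.27), from a low 1.92 to 0.45 log2 CPM. The limma adjusted p-values of these 7 ran from 0.000612 to 0.00546. Dusp10 rose by 0.49 (limma adjusted p = 0.0486), but no longer passed once any library other than untreated library 1 was left out (0.36 to 0.57). Dusp1 (-0.0092), Dusp5 (0.12) and Dusp16 (-0.05) did not pass (limma adjusted p = 0.972, 0.306 and 0.765). All of these phosphatase genes except Dusp7 were named after their values were seen.

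NFAT genes and calcineurin subunits gave 6 rises and 1 fall of 12 (58.3% called, against 38.3% of all tested genes, median 0.35). Nfatc2, an NFAT factor that binds with AP-1, was scarce in untreated cells and rose from 0.38 ± 0.32 to 2.35 ± 0.45 log2 CPM (SD, n = 3), a log2 difference of 1.96 (SE 0.32, limma adjusted p = 0.0033). The calcineurin subunit genes Ppp3ca (0.44, SE 0.09) and Ppp3r1 (0.51, SE 0.11) rose and the calmodulin gene Calm2 fell (-0.45, SE 0.09). Their limma adjusted p-values were 0.00867, 0.00886 and 0.00735.

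In the IRF family and its lymphoid partners 0 rose and 6 fell of 14 (42.9% called, against 38.3% of all tested genes). Their median log2 fold change was -0.22, and no listed relative passed in the direction of Irf4. Irf9, a subunit of the interferon-stimulated complex, fell (-0.82, SE 0.10, limma adjusted p = 0.001), and so did Spi1, which encodes the myeloid and B cell factor PU.1, a DNA-binding partner of IRF4 (-1.32, SE 0.19, limma adjusted p = 0.00185). The lymphoid zinc finger genes Ikzf1 (-0.59, SE 0.09) and Ikzf3 (-0.78, SE 0.14) fell with limma adjusted p-values of 0.00271 and 0.00402. Irf8, the closest relative of Irf4, stood at 6.02 ± 0.18 in treated and 6.09 ± 0.15 log2 CPM in untreated libraries (SD, n = 3), and the 95% interval of the log2 difference was -0.35 to 0.21 (limma adjusted p = 0.674). It was named after its values were seen.

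Of 30 listed genes known as targets of AP-1, BATF or IRF4 in T cells and other cells, 19 were tested. Listed genes such as Ifng, Csf2 and Gzmb were not among them. Of the 19, 1 rose and 7 fell (42.1% called, median -0.37), beside 19.2% and 19.0% of all tested genes. The IL-2 receptor gene Il2ra (-1.19, SE 0.12), and the chemokine gene Ccl4 (-1.05, SE 0.13) fell. Mmp9, a matrix protease gene (-1.18, SE 0.17), and the chemokine gene Ccl3 (-2.15, SE 0.39) fell too, Ccl3 from a low 1.21 to -0.95 log2 CPM. The limma adjusted p-values of these 4 ran from 0.000612 to 0.0046. Ccl3, Ccl4 and Mmp9 are also genes of myeloid cells, and the summed myeloid and dendritic cell markers were lower in treated libraries as well (54.4 to 60.0 against 77.5 to 103.6 CPM); their part in these falls was not tested. Prdm1, a target of IRF4 named after its values were seen, stood at 2.49 ± 0.40 in treated and 2.09 ± 0.35 log2 CPM in untreated libraries (SD, n = 3), and did not pass (0.40, limma adjusted p = 0.288).

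**Figure D4:**
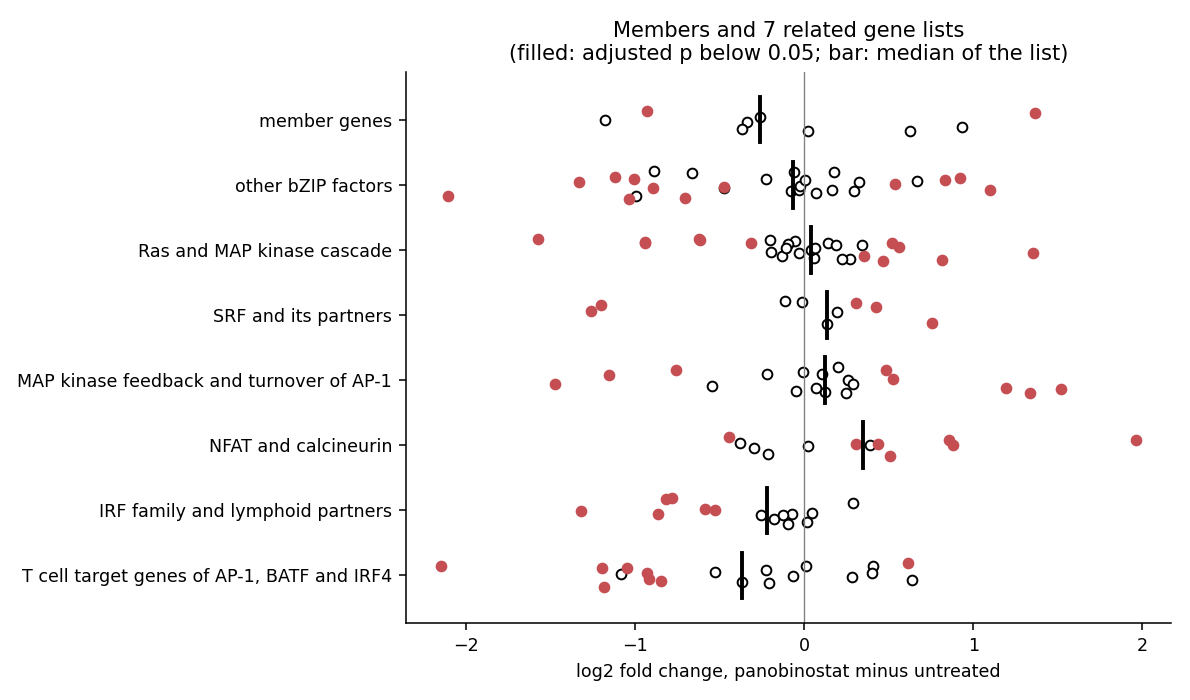
Log2 fold change (x axis, panobinostat minus untreated) of the 9 members and of the tested genes of 7 related lists, 1 point per gene (filled where the adjusted p was below 0.05), with a bar at each median. The members' median lies at -0.26, and the list medians run from -0.37 for the target genes to 0.35 for NFAT and calcineurin.

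Marker transcripts of other cell types were read in these libraries, and B cells, plasma cells and some dendritic cells also use Irf4. The T cell markers were present, with Lck at 8.27 ± 0.10, Cd3d at 8.18 ± 0.04 and Cd3e at 6.02 ± 0.07 log2 CPM in treated and 9.09 ± 0.05, 8.69 ± 0.10 and 6.52 ± 0.05 in untreated libraries (SD, n = 3). Of 7 such markers 0 rose and 4 fell (57.1% called, against 38.3% of all tested genes). Of 6 tested markers (8 listed) of B cells and plasma cells 1 rose and 2 fell (50% called). Their summed level was 141 to 159 CPM in treated and 153 to 175 CPM in untreated libraries. Jchain, which encodes the joining chain of secreted antibodies, was at 6.40 ± 0.11 in treated and 6.63 ± 0.13 log2 CPM in untreated libraries (SD, n = 3), and did not pass (-0.23, limma adjusted p = 0.0946), though it did without untreated library 1 (-0.30) and with sample weights (-0.27). Sdc1, a surface marker of plasma cells, was the one that rose (4.75 ± 0.25 against 4.12 ± 0.08 log2 CPM, SD, n = 3), by 0.63 (SE 0.15, limma adjusted p = 0.0123), while the B cell receptor gene Cd79b fell (-0.97, SE 0.23, limma adjusted p = 0.0123). Xbp1, the plasma cell bZIP factor, rose by 1.10 (SE 0.19, limma adjusted p = 0.00429).

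Myeloid and dendritic cell markers gave 0 rises and 2 falls of 6 tested (9 listed), with the summed levels given beside the target genes. The share called was 33.3%, against 38.3% of all tested genes. Lyz2, a lysozyme gene of myeloid cells, fell (-0.62, SE 0.11, limma adjusted p = 0.00487). Csf1r, the receptor gene of macrophage growth factor, fell too (-1.35, SE 0.36, limma adjusted p = 0.0217), but no longer passed once panobinostat library 1 (-1.0) or 3 (-1.38) or untreated library 2 (-1.09) or 3 (-1.38) was left out. Erythroid markers gave 1 rise and 3 falls of 6 (66.7% called), at a summed 6297 to 6700 CPM in treated and 6686 to 7942 CPM in untreated libraries. Adgre1, a macrophage marker, and Siglech, a marker of plasmacytoid dendritic cells, were near the limit of detection. In bulk libraries fewer cells of a type and less RNA per cell cannot be told apart. The part of these cells in the rise of Irf4 and in the fall of Fosl2 was not tested.

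**Figure D5:**
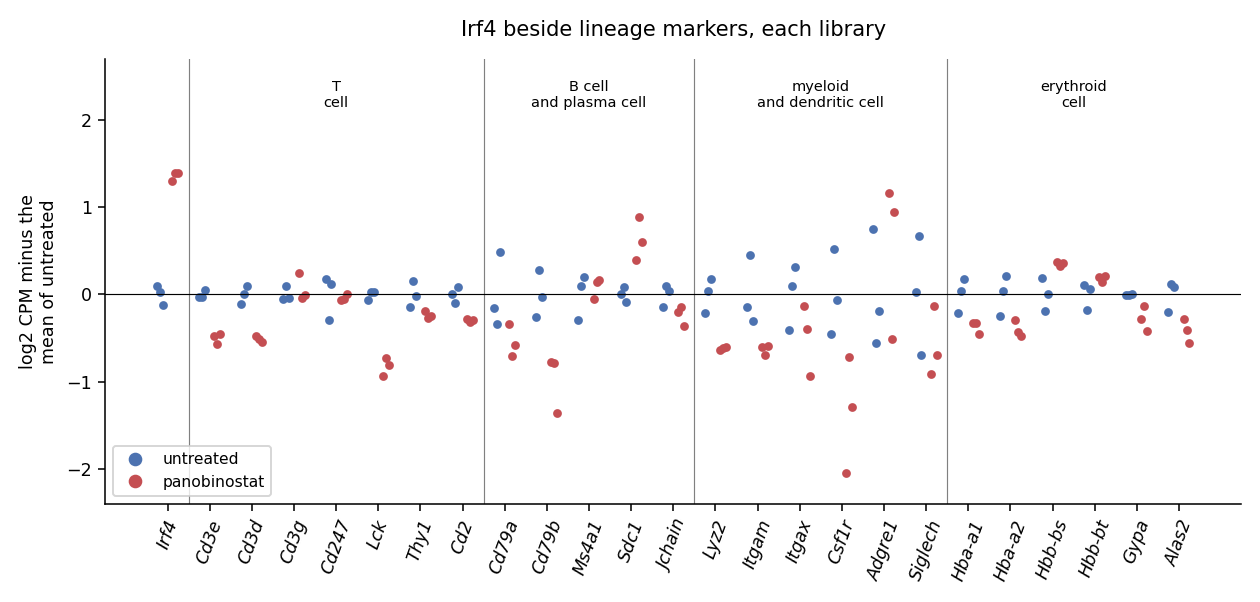
Level of Irf4 and of lineage markers in every library, as log2 CPM minus the mean of the untreated libraries (y axis), untreated in blue and panobinostat in red. Irf4 lies above all untreated libraries in all 3 treated libraries, and Sdc1 is the one plotted marker of B cells and plasma cells that rose.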

How the data were processed

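The authors deposited 1 table of log2 values for 13185 gene symbols in 6 libraries. That these log2 values are CPM, quantile normalized between libraries, was inferred from the values, whose powers of 2 sum to 994114 to 994181. The submitters' processing notes list build mm10 and name HISAT2 2.1.0, Subread 1.5.0 with featureCounts, cutadapt 1.9 and limma. The sources used here did not give the annotation, strand setting or filters.

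Rows with a mean log2 of at least 0 (12554) were fitted with limma 3.58.1 in R 4.3.3 (lmFit and eBayes, the prior variance following the mean level), with Benjamini-Hochberg adjustment over all of them and a threshold of 0.05. Reads were estimated per library by counting steps between distinct values, with the lowest step taken as 0 reads, and above 300 steps from CPM. No molecular identifiers were named, so a read is not an independent molecule, and low counts carry counting error. Gene positions came from GENCODE M21 and promoters from RefSeq GRCm38.p6, where all 10 symbols matched. The fit was tested on simulated data. Python 3.11.15, pandas 2.3.3 and matplotlib 3.10.9 were used for tables and figures. The 19 rows whose symbols had become dates were named nowhere.

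Named were all members, the 2 genes nearest in profile to each called member (no predicted genes or pseudogenes), and up to 4 genes with the smallest adjusted p from each of 7 lists. A named gene and a marker are not reported here. Markers, Fosl1, Xbp1 and those so marked were added after their values were seen. Members, lists and tests were chosen with earlier results of these data known. Alternatives were other filters, scalings, spread models, sample weights, a pseudocount, a replicate block, a stricter threshold and each library left out.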

Additional observations from a re-analysis of the deposited data

How the results depend on the processing

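The calls of Irf4 and Fosl2 held in all 16 alternatives (10 settings and 6 fits with 1 library left out), and 679 of 701 refits of the 44 other called genes named kept their call, with 0 reversed. The count of called genes was 2513 at an adjusted p below 0.01 (1240 higher, 1273 lower) and 3295 to 5226 with 1 library left out, of which 1587 to 2664 were higher. The count of called members was 2 to 4 with 1 library left out, 4 without untreated library 1 (Irf4, Fosl2, Jun and Jund). In that fit 5226 of all tested genes were called. With 1 library left out, the log2 fold change ran from 0.47 to 0.83 for Fos, -0.39 to -0.17 for Jun, -0.45 to -0.26 for Jund and -0.027 to 0.089 for Junb. Junb changed sign without untreated library 2 (-0.027) or 3 (-0.00031), and Irf8 without panobinostat library 2 (0.033), over a range of -0.151 to 0.033, and Mapk8 did with sample weights (0.046) and without panobinostat library 1 (0.025) or untreated library 1 (0.061), over a range of -0.081 to 0.061 with 1 library left out. Calls were gained by Jund with a robust spread model (-0.34) and with sample weights (-0.43), and by Batf without a mean-variance trend (-1.18). The cause of these differences was not tested. Libraries with the same number, which only the table's columns give, did not deviate together (correlations of deviations -0.04, 0.10 and -0.01). With the number as a replicate block 4148 genes and 2 members were called, Irf4 at 1.36 (limma adjusted p = 0.00355) and Fosl2 at -0.93 (limma adjusted p = 0.0111). Depth limits Batf, Fosb and Atf3 most, at 2 to 17 reads a library, and with a mean log2 of at least 2 required these 3 were not fitted.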
